A study of Oryza sativa Japonica Group with 9 samples.

Results

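Chlorophyll is made from glutamate through a chain of plastid enzymes encoded in the nucleus, and 10 rice genes along that chain are described here in the shoot apex of wox11 mutant, jmj705 mutant and wild-type seedlings. The genes were chosen by name and pathway step, with earlier results of these data known: HEMA1, CHLD, CHLH, CHLI, GUN4, CRD1, DVR, PORA, PORB and CAO1. Each was found under 1 locus identifier, so that 10 of the 55719 named loci in the expression tables are described. Of the 10 symbols, 8 stand beside the locus in the RefSeq gene table, and those of GUN4 and CRD1 rest on the locus list used to find them.

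Glutamyl-tRNA reductase, encoded by HEMA1, makes the precursor shared by chlorophyll and haem. Magnesium chelatase, with its subunits CHLD, CHLH and CHLI, then inserts magnesium into protoporphyrin and commits it to chlorophyll, and the porphyrin-binding protein GUN4 stimulates this step. The cyclase subunit CRD1 closes the fifth ring, divinyl reductase (DVR) reduces a vinyl group, protochlorophyllide oxidoreductases (PORA and PORB) carry out a reduction that needs light, and chlorophyllide a oxygenase (CAO1) makes the b form of the pigment.

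The study concerns WOX11, a homeodomain transcription factor, and JMJ705, a demethylase of the repressive histone mark H3K27me3, during rice shoot development. RNA was sequenced from the apex, a piece of 2 to 3 mm cut from 5-day-old seedlings of cultivar Hwayoung. The groups were the jmj705 mutant, the wox11 mutant and the wild type, with 2 libraries each. Binding of JMJ705 was mapped by ChIP-seq with an anti-FLAG antibody in JMJ705-overexpressing seedlings, in the wox11 mutant and in the wild-type background, with 1 library each. All seedlings grew on 0.3% phytagel with 2% sucrose, with light for 14 h (28 °C) and darkness for 10 h (24 °C). The nature of the mutant alleles, the promoter of the JMJ705 transgene, the number of lines and the number of pooled apices stand in none of the sources used here, and neither does the hour of collection. The ChIP-seq peaks are those of an overexpressed, tagged protein.

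The transcripts of the mutated genes were examined first. WOX11 had 4.57 and 7.56 FPKM (fragments scaled by transcript length and by the mapped fragments of the library) in the libraries labelled jmj705, 1.49 and 1.11 in wox11 libraries, and 4.52 and 5.00 in wild-type libraries. Its log2 change of -1.33 in wox11 did not pass at 0.05 (limma adjusted p = 0.0575). JMJ705 had 13.7 and 12.5 FPKM in the libraries labelled jmj705, 8.39 and 8.10 in wox11 libraries, and 7.41 and 6.73 in wild-type libraries. The JMJ705 transcript was therefore not low in the libraries labelled jmj705 (log2 difference 0.81 from the wild type, limma adjusted p = 0.0634), and every direction given for that genotype rests on the label. Summed FPKM over named loci lay between 700090 and 820527 per library. Total read depth is unknown, since the tables hold FPKM and no counts. Pearson correlations of log2(FPKM + 1) over named loci were 0.993 to 0.995 within a genotype and 0.988 to 0.994 between genotypes, as a description. With 2 libraries per genotype, p-values set a difference against the spread between these libraries. That spread was pooled over the genotypes and drawn in part from other loci. In whole apices, fewer cells of a type and less RNA per cell cannot be told apart.

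Transcript levels, which FPKM scales by length, spanned a wide range along the pathway. In wild-type apices PORA was highest with 290 ± 45.3 FPKM, followed by CRD1 with 89.9 ± 0.514, PORB with 71.3 ± 2.18, CHLI with 39.8 ± 0.976 and HEMA1 with 39.1 ± 4.07 (mean ± SD, n = 2). GUN4 had 34.2 ± 2.25 FPKM, CHLH 32.9 ± 2.00, CAO1 23.5 ± 1.58, CHLD 20.3 ± 0.852 and DVR 6.76 ± 0.00692. Of the neighbours in this order, CHLI and HEMA1 overlapped in their library values, as did GUN4 and CHLH. PORA was also highest and DVR lowest in both mutants. In wox11 libraries CRD1 (57.0 ± 5.64 FPKM) overlapped PORB (54.3 ± 5.06), and CHLD, CHLH and GUN4 formed a run in which neighbours overlapped. In the libraries labelled jmj705, CHLH, CHLD and CAO1 formed such a run. PORA alone took 48.6 and 47.0% of the summed FPKM of the 10 genes in the libraries labelled jmj705, 26.1 and 21.2% in wox11 libraries, and 42.3 and 47.0% in wild-type libraries.

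**Figure D1:**
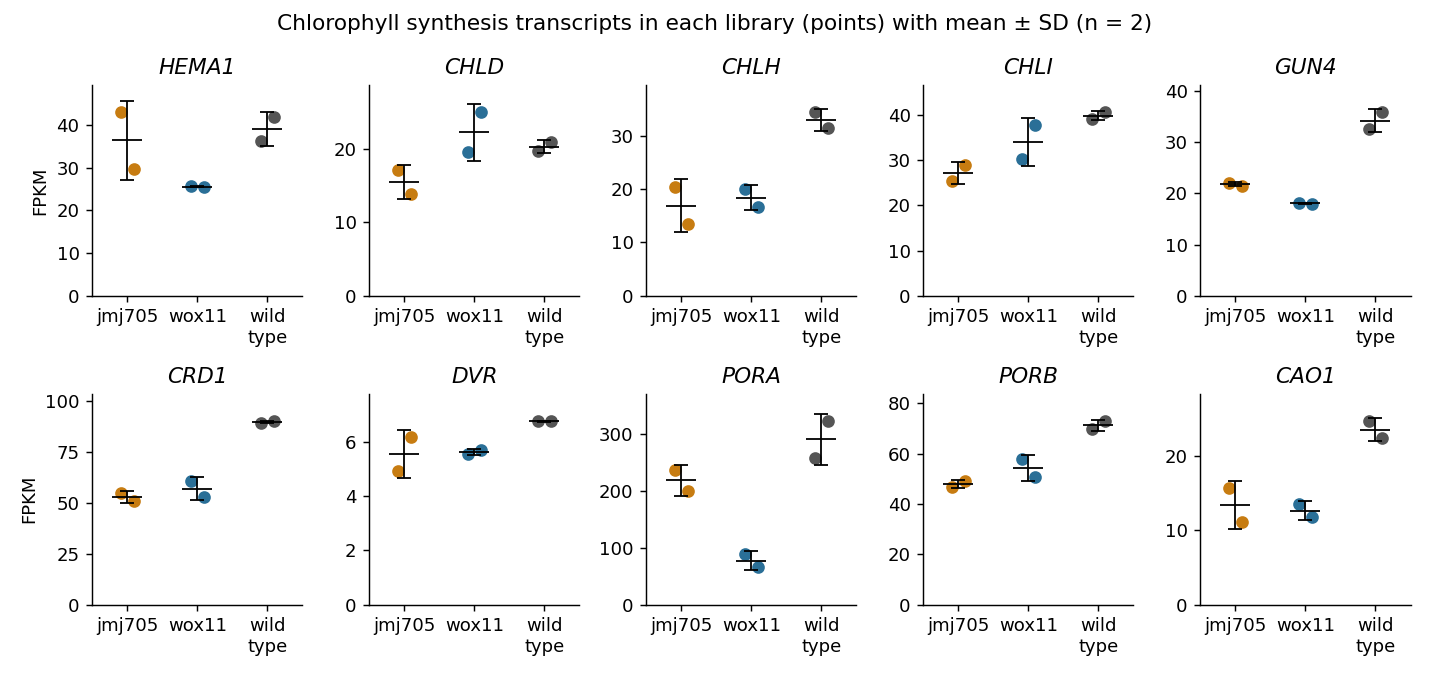
FPKM (vertical axes, from 0) of the 10 genes in each library (points), with the mean and SD of the 2 libraries of the jmj705-labelled, wox11 and wild-type genotypes. PORA had 237 and 199 FPKM in the libraries labelled jmj705, 88.8 and 65.6 in wox11 libraries, and 258 and 322 in wild-type libraries. All 4 mutant values lay below both wild-type values for every gene but HEMA1 and CHLD. Against the wild type, only PORA and GUN4 in wox11 passed the test.

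In wox11 apices PORA and GUN4 fell relative to the wild type, and the other 8 genes did not pass the test. The test was limma's on log2(FPKM + 1) over 21480 loci, with p-values adjusted over all of them by the Benjamini-Hochberg method and a threshold of 0.05. The 2 genes stand against 0.382% of tested loci called lower in wox11. For 9 of the 10 genes, CHLD being the exception, both values in wox11 were under both values in the wild type, against 22.6% of tested loci. By the unadjusted p, 7 of the 10 were lower with a value under 0.05, against 5.84% of tested loci. The median log2 change of the 10 genes was -0.62, and that of all tested loci was -0.016.

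In the libraries labelled jmj705, limma called none of the 10 genes, against 0.0791% of tested loci called lower and 0.321% called higher. By the unadjusted p, 6 of the 10 were lower with a value under 0.05 (CHLH, CHLI, GUN4, CRD1, PORB and CAO1), against 5.85% of tested loci. Both jmj705-labelled libraries lay below both wild-type libraries for 9 of the 10, HEMA1 being the exception, against 21.5% of tested loci. The median log2 change of the 10 was -0.55, and that of all tested loci was -0.018. The wox11 and jmj705 comparisons share the same 2 wild-type libraries, so that their values are given side by side and are not independent of each other.

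**Figure D2:**
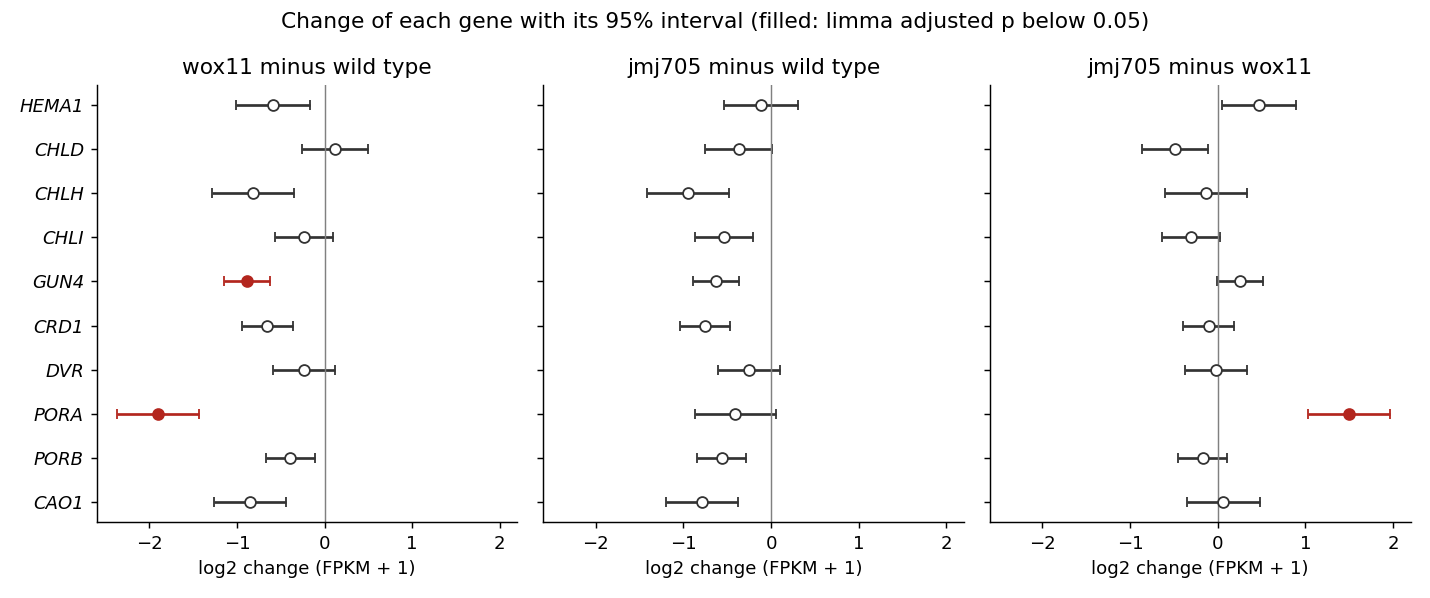
Log2 change of each gene on the log2(FPKM + 1) scale (horizontal axis) with its 95% interval, for wox11 minus wild type, jmj705 minus wild type and jmj705 minus wox11. Filled points mark a limma adjusted p under 0.05: GUN4 and PORA in the first panel, none in the second, and PORA in the third.

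HEMA1 (LOC_Os10g35840, chromosome 10, 19159093 to 19162504) encodes the first enzyme of the set. It had 43.0 and 29.8 FPKM in the libraries labelled jmj705, 25.7 and 25.5 in wox11 libraries, and 36.2 and 42.0 in wild-type libraries. The wox11 libraries were low and close together, while the jmj705-labelled libraries spanned the wild-type ones. The log2 change was -0.59 in wox11 (SE 0.18, limma adjusted p = 0.280) and -0.12 in jmj705 (limma adjusted p = 0.868).

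Magnesium chelatase subunits did not all lie alike. CHLH (LOC_Os03g20700, chromosome 3, 11712169 to 11720131), the porphyrin-binding subunit, had 20.4 and 13.4 FPKM in the libraries labelled jmj705, 20.0 and 16.7 in wox11 libraries, and 34.3 and 31.5 in wild-type libraries. All mutant values of CHLH lay below both wild-type values, at 51.3% of the wild-type mean in jmj705 and 55.8% in wox11. Its log2 changes of -0.95 in jmj705 and -0.81 in wox11 (SE 0.20) missed the threshold, with limma adjusted p of 0.125 and 0.172. CHLI (LOC_Os03g36540, chromosome 3, 20244304 to 20250146), an ATPase subunit, had 25.4 and 28.8 FPKM in the libraries labelled jmj705, 30.1 and 37.6 in wox11 libraries, and 39.1 and 40.5 in wild-type libraries. CHLI was thus lowest in the libraries labelled jmj705, and the 3 genotypes did not overlap. Neither its log2 change of -0.54 in jmj705 (SE 0.14, limma adjusted p = 0.198) nor that of -0.23 in wox11 (limma adjusted p = 0.654) passed. CHLD (LOC_Os03g59640, chromosome 3, 33955198 to 33961962), the other subunit of the ATPase part, had 17.1 and 13.9 FPKM in the libraries labelled jmj705, 19.5 and 25.0 in wox11 libraries, and 19.7 and 20.9 in wild-type libraries. It was low in the libraries labelled jmj705, while the wox11 libraries spanned the wild-type values. The log2 change of CHLD was -0.37 in jmj705 (SE 0.16, limma adjusted p = 0.422) and 0.12 in wox11 (limma adjusted p = 0.873), the only positive one among the 10 genes, and it came to -0.053 without wox11 replicate 2.

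GUN4 (LOC_Os11g16550, chromosome 11, 9177006 to 9184400) had 22.1 and 21.5 FPKM in the libraries labelled jmj705, 18.2 and 18.0 in wox11 libraries, and 32.6 and 35.8 in wild-type libraries. The 3 genotypes did not overlap, and GUN4 was lowest in wox11, at 52.9% of the wild-type mean. GUN4 fell by 0.88 on the log2 scale in wox11 (SE 0.11, limma adjusted p = 0.0225). The call was lost without wox11 replicate 1 (adjusted p = 0.178), wox11 replicate 2 (0.164), wild-type replicate 1 (0.0820) or wild-type replicate 2 (0.114) in the same limma fit, and without the filter on low FPKM (0.0503). In jmj705 the log2 change of -0.62 did not pass (limma adjusted p = 0.0857).

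CRD1 (LOC_Os01g17170, chromosome 1, 9874326 to 9876951), a subunit of the aerobic cyclase, had 55.2 and 50.8 FPKM in the libraries labelled jmj705, 61.0 and 53.0 in wox11 libraries, and 89.6 and 90.3 in wild-type libraries. The mutant genotypes overlapped each other and both lay well below the wild type, at 58.9% of its mean in jmj705 and 63.4% in wox11. Its log2 change was -0.75 in jmj705 (SE 0.12, limma adjusted p = 0.0649) and -0.65 in wox11 (limma adjusted p = 0.0792). With the replicate number as a block the wox11 value passed (limma adjusted p = 0.0472). DVR (LOC_Os03g22780, chromosome 3, 13155800 to 13157404), which acts beside this step, was the lowest of the 10, with 4.92 and 6.19 FPKM in the libraries labelled jmj705, 5.54 and 5.70 in wox11 libraries, and 6.75 and 6.76 in wild-type libraries. All 4 mutant values of DVR lay below the wild-type ones, but its log2 changes of -0.25 in jmj705 and -0.23 in wox11 (SE 0.15) had limma adjusted p of 0.576 and 0.688.

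PORA (LOC_Os04g58200, chromosome 4, 34663055 to 34664723) had the largest change of the 10 genes in wox11. In rice PORA is known for its expression in etiolated and very young seedlings, and PORB for sustained expression in green leaves. PORA had 237 and 199 FPKM in the libraries labelled jmj705, 88.8 and 65.6 in wox11 libraries, and 258 and 322 in wild-type libraries. The wox11 libraries were far below the rest, at 26.6% of the wild-type mean. PORA fell by 1.90 on the log2 scale in wox11 (SE 0.20, limma adjusted p = 0.00987), and 0.107% of tested loci had a lower change. The call was lost without wox11 replicate 2 (log2 change -1.69) and without the filter on low FPKM (limma adjusted p = 0.267). Leaving out the filter adds loci both to the adjustment and to the fit of the variance. In jmj705 the log2 change was -0.41, with a 95% interval from -0.87 to 0.06 and a limma adjusted p of 0.477.

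PORB (LOC_Os10g35370, chromosome 10, 18900290 to 18904022), the second oxidoreductase gene, had 46.8 and 49.1 FPKM in the libraries labelled jmj705, 57.9 and 50.7 in wox11 libraries, and 69.8 and 72.8 in wild-type libraries. PORB was lowest in the libraries labelled jmj705, and its log2 changes of -0.56 in jmj705 (SE 0.12, limma adjusted p = 0.128) and -0.39 in wox11 (limma adjusted p = 0.281) did not pass. The ratio of PORA to PORB FPKM was 5.06 and 4.06 in the libraries labelled jmj705, 1.53 and 1.29 in wox11 libraries, and 3.70 and 4.43 in wild-type libraries. The ratio was low in wox11 alone, without a test of its own. Without PORA, the other 9 genes summed to 251 and 225 FPKM in the libraries labelled jmj705, 251 and 244 in wox11 libraries, and 353 and 363 in wild-type libraries, so that the 2 mutants overlapped in this sum. As the PORA and PORB transcripts resemble each other, reads may be divided between them in part.

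CAO1 (LOC_Os10g41780, chromosome 10, 22478131 to 22486537) had 15.7 and 11.1 FPKM in the libraries labelled jmj705, 13.5 and 11.7 in wox11 libraries, and 24.6 and 22.4 in wild-type libraries. The mutants overlapped each other and lay below the wild type, at 56.9% of its mean in jmj705 and 53.7% in wox11. The log2 changes of -0.79 in jmj705 and -0.85 in wox11 (SE 0.18) missed the threshold, with limma adjusted p of 0.142 and 0.110. CAO1 shares coordinates with LOC_Os10g41770, so that reads may be divided between them. LOC_Os10g41770 had 12.1 and 9.0 FPKM in the libraries labelled jmj705, 12.1 and 13.1 in wox11 libraries, and 10.9 and 10.3 in wild-type libraries, and was thus not low in wox11. The summed pair had 27.7 and 20.1 FPKM in the libraries labelled jmj705, 25.6 and 24.9 in wox11 libraries, and 35.5 and 32.7 in wild-type libraries, or 70.03% of the wild-type mean in jmj705 and 73.9% in wox11. GUN4 likewise shares coordinates with LOC_Os11g16560 (5.79 to 6.93 FPKM), and that pair summed to 68.9% of the wild-type mean in jmj705 and 59.1% in wox11. CHLI does so with LOC_Os03g36534 (at most 1.32 FPKM). For these 3 genes the file gives both loci the same start and end, so that the printed span may run past the gene itself.

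**Figure D3:**
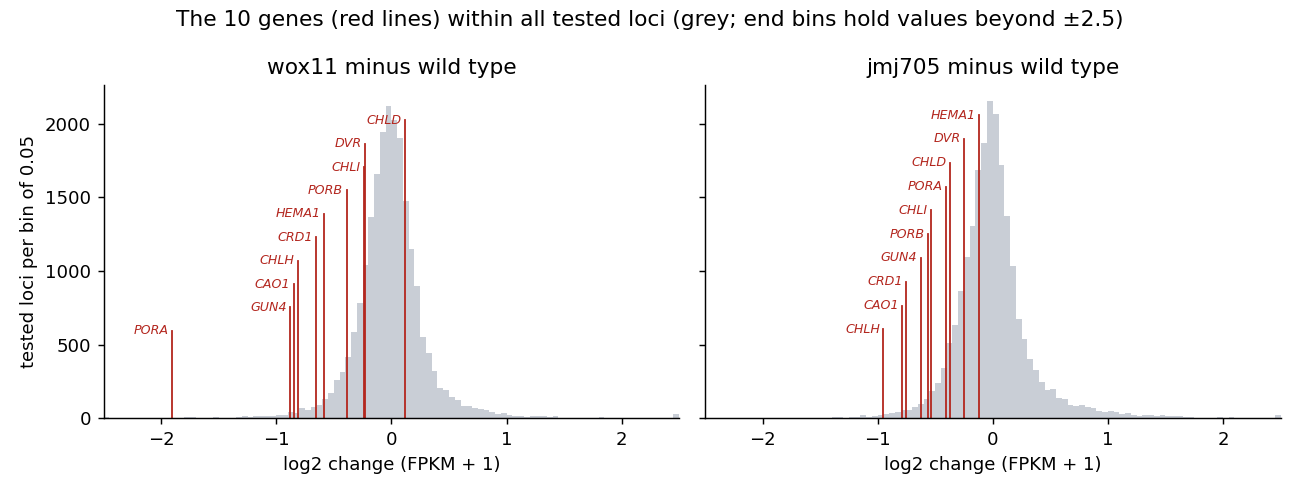
Number of tested loci (vertical axis, grey, bins of 0.05) by log2 change on the log2(FPKM + 1) scale (horizontal axis), with the 10 genes as red lines, for wox11 minus wild type and jmj705 minus wild type. In wox11 PORA lies at -1.90, apart from the other 9 genes at -0.88 to 0.12, and in jmj705 the 10 lie between -0.95 and -0.12.

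The mutants were also set against each other. PORA was the one gene of the 10 that differed between them, being higher in the libraries labelled jmj705 by 1.50 on the log2 scale (SE 0.20, 95% interval 1.03 to 1.96, limma adjusted p = 0.0420), against 0.172% of tested loci called higher. The call was lost in the same limma fit without jmj705 replicate 1 (0.211), jmj705 replicate 2 (0.167), wox11 replicate 1 (0.124), wox11 replicate 2 (0.374) or wild-type replicate 1 (0.0505). It was also lost with quantile normalization (0.0905), with a pseudocount of 0.1 (0.0544), without the FPKM filter (0.475) and with the replicate number as a block (0.0533). HEMA1 was 0.47 higher in jmj705 (95% interval 0.05 to 0.89, limma adjusted p = 0.620) and CHLD was 0.49 lower (95% interval of the difference -0.87 to -0.11, limma adjusted p = 0.529), and neither passed. The libraries labelled jmj705 lay above both wox11 libraries for HEMA1, GUN4 and PORA, against 18.1% of tested loci. They lay below both wox11 libraries for CHLD, CHLI and PORB, against 19% of tested loci, and the genotypes overlapped for the other 4. The median log2 difference of the 10 genes was -0.06. Of the authors' own confidence bounds, whose upper limit lay 33.9 to 63.6% above the value, those of PORA separated the groups. They ran from 131 to 319 FPKM in the libraries labelled jmj705, from 42.5 to 120 in wox11 libraries and from 170 to 436 in wild-type libraries, so that wox11 stood apart from both. Bounds stood apart with lower values in wox11 than in the wild type for 0.116% of tested loci, and with higher values in jmj705 than in wox11 for 0.116%. In jmj705 against the wild type they stood apart for 0 of the 10 genes, against 0.0186% of tested loci lower. For the other 9 genes these bounds overlapped in every comparison.

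Other steps of the pathway were followed in a list of 14 loci outside the 10 genes, 7 of which have a RefSeq symbol. limma called none of the 14 in any of the 3 comparisons. Of all tested loci, 0.838% were called in either direction in wox11, 0.4% in jmj705 and 0.284% between the mutants. In wox11, 5 of the 14 had a log2 change under 0 and for 2 of these the unadjusted p was under 0.05, and the median was 0.02. In jmj705, 13 of the 14 were under 0 and for 4 of these the unadjusted p was under 0.05, and the median was -0.15. Across all tested loci, 53.7% were under 0 in jmj705 and 52.9% in wox11, and 5.85% in jmj705 and 5.84% in wox11 were lower with an unadjusted p under 0.05.

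CHLP, the geranylgeranyl reductase that prepares the phytol tail, had 42.5 and 31.0 FPKM in the libraries labelled jmj705, 38.7 and 30.9 in wox11 libraries, and 80.1 and 68.4 in wild-type libraries. All 4 mutant values lay far below the wild type. Its log2 change was -1.01 in jmj705 (limma adjusted p = 0.0903) and -1.08 in wox11 (limma adjusted p = 0.0598). With the replicate number as a block both passed in limma (adjusted p = 0.0272 in jmj705 and 0.0122 in wox11), and in wox11 a minimum of 5 FPKM had the same effect (0.0432). HEMB, which joins aminolevulinate into porphobilinogen, had 41.3 and 35.2 FPKM in the libraries labelled jmj705, 31.0 and 31.9 in wox11 libraries, and 55.1 and 48.7 in wild-type libraries. HEMB was lowest in wox11, with log2 changes of -0.43 in jmj705 and -0.70 in wox11 (limma adjusted p = 0.244 and 0.0719). GSA, which makes aminolevulinate, overlapped between all genotypes, with 89.0 and 106 FPKM in the libraries labelled jmj705, 85.7 and 97.7 in wox11 libraries, and 78.0 and 106 in wild-type libraries. The 9 early loci that serve haem and chlorophyll alike summed to 406 to 408 FPKM in the libraries labelled jmj705, 408 to 474 in wox11 libraries, and 445 to 471 in wild-type libraries. No locus was called among 4 of the haem branch or 6 of chlorophyll breakdown. In either direction, limma called 0.838% of tested loci in wox11, 0.4% in jmj705 and 0.284% between the mutants. At such shares, no call in lists this short says little. Haem branch medians were -0.002 in jmj705 and 0.008 in wox11, and breakdown medians were -0.11 in jmj705 and 0.043 in wox11.

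**Figure D4:**
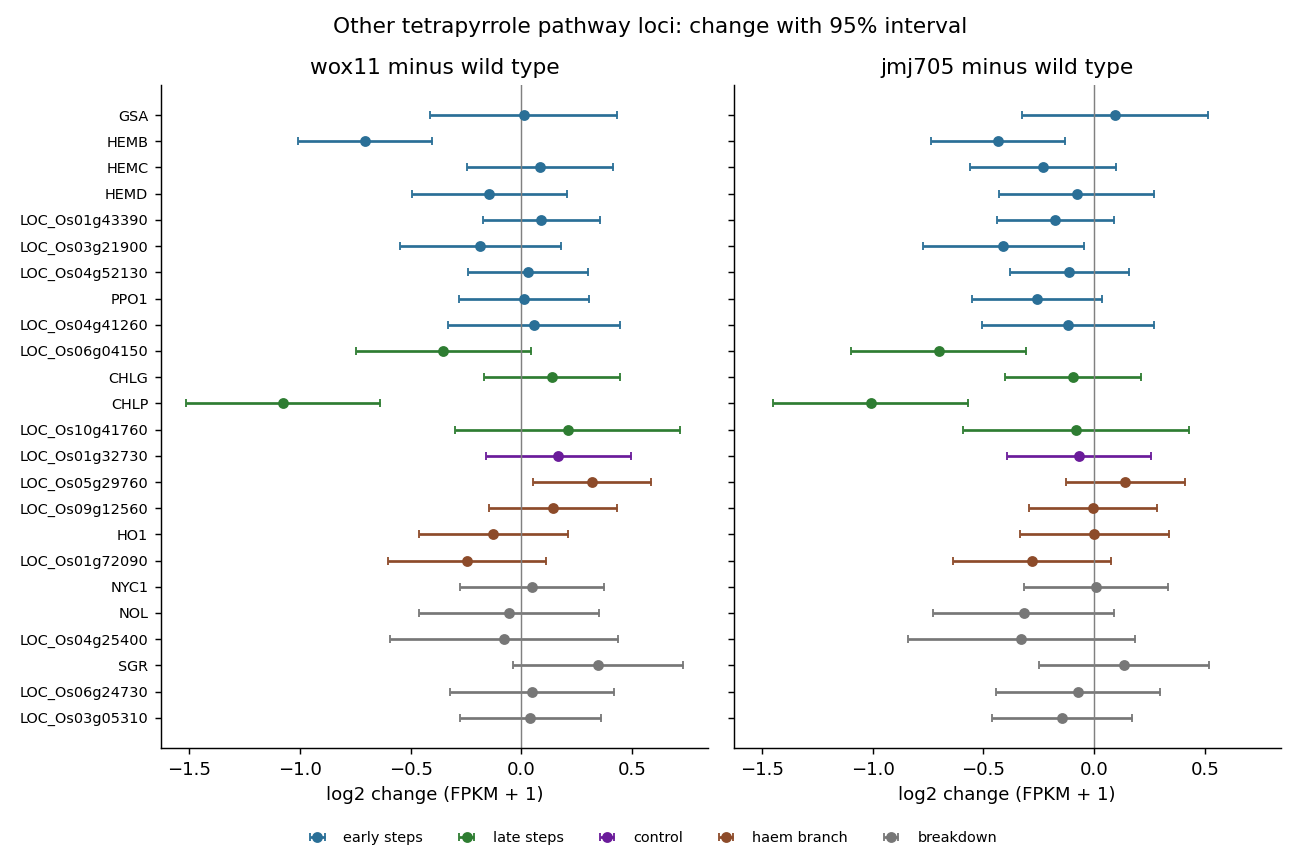
Log2 change on the log2(FPKM + 1) scale (horizontal axis) with 95% intervals for 24 further loci of tetrapyrrole metabolism, for wox11 minus wild type and jmj705 minus wild type, coloured by list. CHLP lies lowest in both panels, at -1.08 and -1.01, and GSA lies near 0.

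Known regulators and cell type markers were examined in the same libraries. GLK1, an activator of chloroplast genes, had 39.8 and 37.4 FPKM in the libraries labelled jmj705, 28.6 and 24.0 in wox11 libraries, and 42.7 and 44.6 in wild-type libraries. It was lowest in wox11, where its log2 change of -0.71 did not pass (limma adjusted p = 0.0632). GLK2, its paralog, had 15.9 and 10.7 FPKM in the libraries labelled jmj705, 14.9 and 14.1 in wox11 libraries, and 15.8 and 15.4 in wild-type libraries. The log2 change of GLK2 was -0.24 in jmj705 (95% interval -0.66 to 0.19, limma adjusted p = 0.676) and -0.096 in wox11 (95% interval -0.52 to 0.33, limma adjusted p = 0.911). LHY, a morning transcription factor of the circadian clock, had 54.1 and 40.9 FPKM in the libraries labelled jmj705, 5.31 and 4.85 in wox11 libraries, and 147 and 123 in wild-type libraries. GI, an evening clock gene, had 147 and 140 FPKM in the libraries labelled jmj705, 197 and 213 in wox11 libraries, and 43.9 and 56.6 in wild-type libraries. LHY fell by 4.48 on the log2 scale in wox11 (limma adjusted p = 6.23e-05). There limma also called GI higher (adjusted p = 0.00265). In jmj705, limma called LHY lower (log2 change -1.49, adjusted p = 0.0187) and GI higher (1.51, adjusted p = 0.0140). Without the FPKM filter the calls of LHY (limma adjusted p = 0.300) and GI (0.182) in jmj705 were lost. That of GI in wox11 was lost too (0.0819). The jmj705 calls of LHY and GI were also lost without jmj705 replicate 2 (log2 changes -1.29 and 1.54). The same held without wild-type replicate 1 (-1.36 and 1.33). In jmj705 the GI call was lost without jmj705 replicate 1 (1.47). The LHY call there was lost in a fit of jmj705 and the wild type alone (limma adjusted p = 0.0516). By mean FPKM, LHY was highest in the wild type and lowest in wox11. Of the 10 genes, HEMA1, GUN4, PORA and CAO1 had this order. HEMB, GLK1 and the green leaf genes RBCS2, CAB1R and CAB2R had it too. CHLH, CHLI, CRD1, DVR and PORB were highest in the wild type but lowest in jmj705. CHLD was highest in wox11 and lowest in jmj705. PORA was not called in jmj705. The part of the clock genes and of the hour of collection in the chlorophyll gene values was not tested.

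Among the cell type markers, 3 green leaf genes (RBCS2, CAB1R and CAB2R) summed to 618 to 688 FPKM in the libraries labelled jmj705, 255 to 598 in wox11 libraries, and 1032 to 1051 in wild-type libraries. RBCS2 had 27.5 and 28.4 FPKM in the libraries labelled jmj705, 24.4 and 21.5 in wox11 libraries, and 39.8 and 43.4 in wild-type libraries. The 5 meristem genes of the KNOX family summed to 150 to 200 FPKM in the libraries labelled jmj705, 124 to 130 in wox11 libraries, and 162 to 181 in wild-type libraries, and OSH43 was near 0 in all libraries (at most 0.125 FPKM). LOC_Os02g44310, listed as a root marker, had 102 to 131 FPKM in the libraries labelled jmj705, 23.9 to 61.8 in wox11 libraries, and 89.7 to 146 in wild-type libraries. The leaf sum, the meristem sum and the root marker were all lowest in wox11. Of the 3 green leaf genes, limma called RBCS2 lower in wox11 (log2 change -0.83, adjusted p = 0.0319), against 0.382% of tested loci. CAB1R and CAB2R did not pass. The RBCS2 call was lost without the FPKM filter (limma adjusted p = 0.187), without the variance trend (0.0557) and with any 1 library left out. The part of tissue make-up in the chlorophyll gene values was not tested.

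JMJ705 peaks near the 10 genes were counted within 1 kb of each locus. In the wox11 background 3 of the 10 had such a peak, against 3.45% of all 55706 named loci used, and in the wild-type background 0 of the 10 had one, against 4.01% of named loci. Each background has 1 library and its own peak list, of 1309 peaks from 7509947 tags in the wox11 background and 1551 peaks from 5043282 tags in the wild-type background, so that the difference between them was not tested. The false discovery rate given by the authors was at least 5.59% for every peak of the wox11 background, while 1532 of the 1551 peaks of the wild-type background had at most 5%.

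The peak at CAO1 in the wox11 background overlapped the locus (chromosome 10, 22477740 to 22478702). It held 53 tags, with a fold enrichment of 11.69 and a false discovery rate of 7.07% in the authors' list. Of its 963 bp, 572 lay inside the CAO1 locus at its lower-coordinate end. As LOC_Os10g41770 has the same span, the overlap may belong to either locus. The remainder of the peak lay in the gap of 454 bp to the neighbouring locus LOC_Os10g41760, ending 64 bp short of it. The peak at DVR lay 131 bp from the locus (chromosome 3, 13157535 to 13158209) with 36 tags, 8.47-fold enrichment and a false discovery rate of 5.73%. That at CHLH lay 999 bp away (chromosome 3, 11721130 to 11721588), just inside the limit, with 27 tags, 5.89-fold enrichment and a false discovery rate of 5.97%. The next gene outside the limit was CHLD, at 74687 bp. In the wild-type background the nearest peak to any of the 10 was 21849 bp from CHLI.

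PORA and GUN4, the 2 genes called lower in wox11, had no peak within 1 kb in either background. Of CAO1, CHLH and DVR, which had such a peak in the wox11 background, none passed the test. They had both wox11 values below both wild-type values. The same held for 9 of the 10 genes, against 22.6% of tested loci. LOC_Os10g41760, 64 bp from the CAO1 peak, had 3.79 and 4.37 FPKM in wox11 libraries. It had 2.63 and 4.32 in wild-type libraries, so that the genotypes overlapped. The median distance from the 10 genes to a peak was 131223 bp in the wox11 background and 76872 bp in the wild-type background, against 110746 and 96420 bp over tested loci. The files give no strand, so that peaks could not be placed upstream or downstream.

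**Figure D5:**
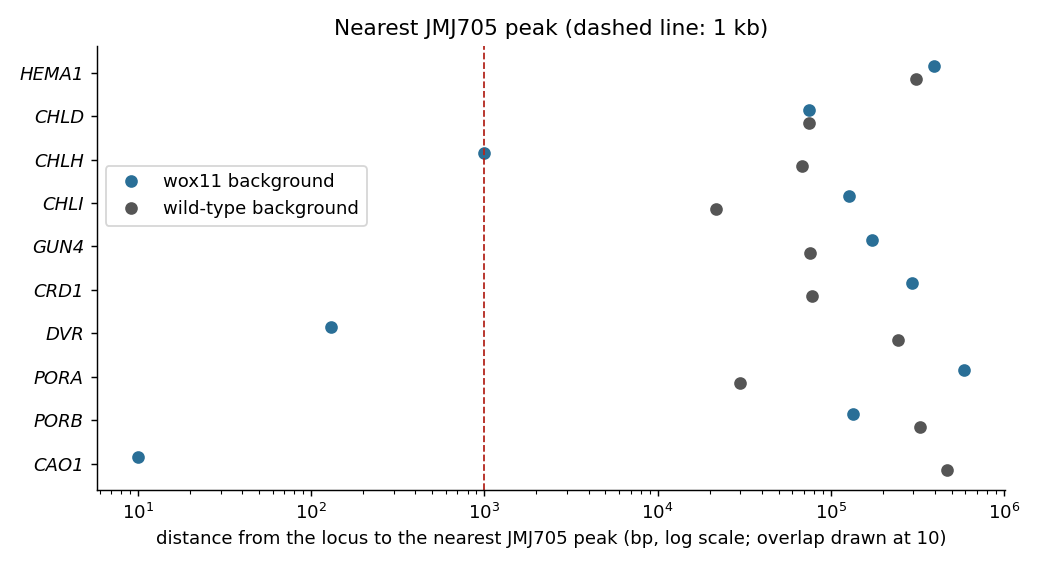
Distance in bp (horizontal axis, log scale) from each of the 10 loci to the nearest JMJ705 peak in the wox11 background (blue) and in the wild-type background (grey), with an overlap drawn at 10 bp and a dashed line at 1 kb. CAO1, DVR and CHLH lie at or inside the line in the wox11 background, and every other point lies beyond 20 kb.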

How the data were processed

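RNA of 6 shoot apex libraries was processed by the authors with Trimmomatic, TopHat and Cufflinks, per the submitters' processing notes, and the deposited values are FPKM per locus with confidence bounds, per the file headers. The genome build stands in none of the sources used here. Locus starts were taken as counted from 0 and are printed from 1. For ChIP-seq, the submitters' processing notes name Trimmomatic 0.32, Bowtie2 2.1.0 and SAMtools 0.1.17. Per the file headers, MACS 1.4.2 called peaks in each library with 1e-05 as its p-value cutoff. Each deposited peak has a tag count, a score (10 times the negative log10 p), a fold enrichment and, in percent, its false discovery rate. Chromatin was sheared to 200 to 500 bp, per the labels' protocols. The input DNA sample was not analysed here.

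Of 57567 loci, 1848 without a name, which held 71.2 to 95.3% of the summed FPKM, and 13 with a failed estimate were left out. A locus was tested if 2 or more libraries reached 1 FPKM, which held for 21480 loci and all 10 genes. The test was that of limma 3.58.1 (R 4.3.3) applied to log2(FPKM + 1), fitting a mean for each genotype and a mean-variance trend. It had 3 residual degrees of freedom and 4.25 prior ones, which come from the other loci. Fold changes on this scale understate those of low loci. The test was tried on simulated data first. Low FPKM values gave no reliable step of 1 read, so no count test was run. Peak distances used Python 3.11.15 and pandas 2.3.3. Alternatives changed the pseudocount, the filter, the normalization, the variance model, the libraries in the fit, the replicate block, the peak distance and the false discovery rate limit.

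The members and lists were chosen with earlier results of these data known. Genes named are the 10, listed genes set beside them, and the loci whose profile was most like theirs. The labels do not say what a replicate number shares. Deviations of same-numbered libraries from their genotype means correlated at 0.114 (jmj705 and wox11), 0.118 (jmj705 and wild type) and 0.292 (wox11 and wild type) over 21480 loci. As each was over 0.1, the blocked value is given where it changes a call. No promoter sequence was searched.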

Additional observations from a re-analysis of the deposited data

Results flagged for a closer look

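PORA differed between the mutants: its log2 change was 1.50 higher in the libraries labelled jmj705 than in wox11 libraries (limma, adjusted p = 0.0420 over 21480 loci). Both jmj705-labelled libraries, with 237 and 199 FPKM, lay above both wox11 libraries, with 88.8 and 65.6. Over 15 alternatives the adjusted p ran from 0.0311 to 0.475.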

How the results depend on the processing

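PORA lay lowest of the 10 genes in wox11 under all 15 alternatives. Without the FPKM filter 0 of the 10 were called in wox11 and 0 between the mutants, where the count was also 0 with a pseudocount of 0.1, quantile normalization and the block. Leaving out 1 library gave 0 to 2 called in wox11 and 0 to 1 between the mutants. Loci called in all numbered 35 to 132 in wox11, 20 to 66 in jmj705 and 24 to 62 between the mutants with 1 library left out, against 180, 86 and 61. Without the filter, 156 were called in jmj705 and 185 between the mutants, and quantile normalization gave 55 in jmj705. In the other pathway list 1 locus (CHLP) was called in wox11 with a minimum of 5 FPKM. With 1 library left out the lone one is assumed to vary like the other groups. The cause of these shifts was not tested.

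With the replicate number as a block, 3 of the 10 genes were called in wox11, 0 in jmj705 and 0 between the mutants, and 1 other pathway locus (CHLP) in each mutant. Over all loci, 230 were called in wox11, 89 in jmj705 and 69 between the mutants. Among the 10 genes and the other pathway loci the block changed no call but those of CRD1, PORA between the mutants, and CHLP.

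The median difference of the 10 genes between the mutants ran from -0.15 to 0.053 with 1 library left out, positive without jmj705 replicate 2. These log2 changes, none past the test, took both signs with 1 library left out. Against the wild type, HEMA1 ran from -0.38 to 0.14 and WOX11 from -0.048 to 0.57 in jmj705 (both turned without jmj705 replicate 2), and CHLD from -0.053 to 0.29 in wox11 (turned without wox11 replicate 2). Between the mutants, CHLH ran from -0.42 to 0.15 (turned without jmj705 replicate 2), DVR from -0.16 to 0.12 (turned without jmj705 replicate 1), CAO1 from -0.17 to 0.30 and CHLP from -0.15 to 0.29 (both turned without jmj705 replicate 1 and without wox11 replicate 2, at -0.030 and -0.089). Counting only peaks that overlap a locus left 1 of the 10 (CAO1) in the wox11 background. A limit of 5% on the false discovery rate would leave none of the 10 there, since no peak of that list passed it.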

Other observations

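Among 14984 loci compared, those whose profile over the 6 libraries was most like the median profile of the 10 genes were LOC_Os08g44680 and LOC_Os07g17560, with root mean square differences of 0.046 and 0.048 on the log2 scale. LOC_Os08g44680 had 136 and 140 FPKM in the libraries labelled jmj705, 141 and 122 in wox11 libraries, and 189 and 208 in wild-type libraries. Of the 10 genes CRD1 lay closest to that median profile (0.088) and PORA farthest from it (0.66).

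Ratios of magnesium chelatase subunits are given as values, without a test. CHLH over CHLD was 1.19 and 0.962 in the libraries labelled jmj705, 1.02 and 0.670 in wox11 libraries, and 1.74 and 1.51 in wild-type libraries, so that the mutants overlapped each other and both lay below the wild type. CHLI over CHLD was 1.48 and 2.07 in the libraries labelled jmj705, 1.54 and 1.51 in wox11 libraries, and 1.99 and 1.94 in wild-type libraries, so that jmj705 and the wild type overlapped.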
